A study of Mus musculus with 6 samples.

Results

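The 6 genes Itga2b, Gata2, Cpa3, Ms4a2, Hdc and Mcpt8, of 28048 genes in the count matrices, are described here. They were found by gene symbol and are known as genes of mast cells, basophils and megakaryocytes. They were chosen by their measured levels in these same libraries, in which WT and ΔTE cells were compared, so every difference between the genotypes below is a description and none was tested. The study asked what happens to early T cell progenitors when an enhancer that drives Bcl11b, a transcription factor of T lineage commitment, is deleted.

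RNA of single cells was counted by sci-RNA-seq3, in which cells are barcoded in successive rounds of wells and each captured RNA molecule carries a unique molecular identifier (UMI). WT progenitors carried a YFP tag on both Bcl11b copies, and ΔTE progenitors (Del_TE in the labels) carried that tag and lacked the enhancer on both copies, all on a C57BL/6 background. Bone marrow enriched for CD117 was taken from male and female mice aged 2 to 4 months and pooled from 6 to 8 mice per genotype. It was cultured on OP9-DL1 cells, a mouse stromal line that displays a Notch ligand, and then sorted into DN1 (CD44+ CD25-), DN2a (CD44+ CD25+, Bcl11b reporter negative) and DN2b (CD44+ CD25+, reporter positive) cells. Each sorted population went back onto OP9-DL1 for 4 days with cytokines that also permit innate lymphoid cells (ILCs) to form. Each of the 6 conditions was 1 library of 1 such culture, spread over 3 reverse-transcription wells, so the wells show technical spread and are not replicates. The Bcl11b gene itself was intact in the ΔTE animals, so these cells are no model of a full loss of the protein.

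Barcodes counted as cells when they showed 200 genes or more, no more than 2000 UMIs and no more than 30% mitochondrial UMIs, which left 3401 to 19489 cells and 1717136 to 9048728 UMIs per library. Median depth was 386 to 485 UMIs per cell, and no barcode was shared by 2 libraries. The WT library of the DN2a start stood apart, since the mitochondrial limit removed 2.59% of its barcodes and 26.8% to 56.6% of those of the other libraries. Levels are UMIs per 1000000 UMIs of the kept cells (CPM) with exact 95% Poisson intervals, which cover counting error only. Bcl11b itself, the target of the deleted enhancer, had WT levels of 235, 534 and 856 CPM after the DN1, DN2a and DN2b starts, against ΔTE levels of 89.3, 256 and 539 CPM. Its level was lower in ΔTE cells at every start, and the study also reports lower Bcl11b in ΔTE multipotent progenitors from these data.

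Mast cells and basophils are granulocytes that bind IgE through the receptor FcεRI and, when it is cross-linked, release granules that hold histamine and proteases. Megakaryocytes are the marrow cells that shed platelets. The transcription factor GATA2 acts in stem cells and in the progenitors of all these lineages and binds short sequences with a GATA core. FcεRI contains a β chain encoded by Ms4a2, histamine is made by histidine decarboxylase (Hdc), and Cpa3 and Mcpt8 encode granule proteases of mast cells and of basophils. Itga2b encodes CD41, the αIIb chain of the platelet fibrinogen receptor, which early blood progenitors also carry. Transcripts of Cpa3 are likewise known from some early progenitors as well as from mast cells.

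Coordinates below are those of GENCODE M21 on GRCm38, matched by Ensembl identifier, because the submitters' processing notes name the older build mm9. Itga2b (ENSMUSG00000034664) lies on chromosome 11 from 102453297 to 102470122, Gata2 (ENSMUSG00000015053) on chromosome 6 from 88193891 to 88207032, and Cpa3 (ENSMUSG00000001865) on chromosome 3 from 20215620 to 20242181. Ms4a2 (ENSMUSG00000024680) lies on chromosome 19 from 11615523 to 11623719, Hdc (ENSMUSG00000027360) on chromosome 2 from 126593667 to 126619299, and Mcpt8 (ENSMUSG00000022157) on chromosome 14 from 56082166 to 56085273. Gata2 is on the plus strand and the other 5 are on the minus strand. No transcript of another gene matched one of theirs at 95% identity or more over 100 bases or more.

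The promoters of the 3 genes with enough UMIs to compare genotypes are shown because Itga2b and Mcpt8 differed between WT and ΔTE cells in a like way, and that of Ms4a2 because it held the most matches to GATA motifs. Each is 300 bases of RefSeq sequence on GRCm38.p6, from 250 bases before the annotated start to 50 after it, written 5′ to 3′ on the gene's minus strand. They span chr3:20242132-20242431 for Cpa3, chr11:102469834-102470133 for Itga2b, chr14:56085148-56085447 for Mcpt8 and chr19:11623670-11623969 for Ms4a2. Capitals mark matches to AGATAA or TGATAA on either strand, the spelling in capitals being TTATCT where the match is on the other strand.
Cpa3: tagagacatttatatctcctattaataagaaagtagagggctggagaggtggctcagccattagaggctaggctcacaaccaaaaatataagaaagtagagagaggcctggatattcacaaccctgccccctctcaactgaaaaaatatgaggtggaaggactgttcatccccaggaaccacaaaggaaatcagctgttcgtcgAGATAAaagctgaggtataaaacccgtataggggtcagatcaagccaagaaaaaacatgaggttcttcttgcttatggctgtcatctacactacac
Itga2b: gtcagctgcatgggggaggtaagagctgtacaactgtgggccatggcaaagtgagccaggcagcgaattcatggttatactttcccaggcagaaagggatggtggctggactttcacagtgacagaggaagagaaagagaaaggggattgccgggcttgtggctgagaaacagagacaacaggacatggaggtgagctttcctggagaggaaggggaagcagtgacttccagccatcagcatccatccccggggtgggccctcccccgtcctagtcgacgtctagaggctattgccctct
Mcpt8: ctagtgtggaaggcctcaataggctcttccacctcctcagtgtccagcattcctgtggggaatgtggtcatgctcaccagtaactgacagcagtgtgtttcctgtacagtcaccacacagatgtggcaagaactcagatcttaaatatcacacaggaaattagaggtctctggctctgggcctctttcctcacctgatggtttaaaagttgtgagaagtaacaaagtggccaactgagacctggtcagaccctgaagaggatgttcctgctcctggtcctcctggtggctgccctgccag
Ms4a2: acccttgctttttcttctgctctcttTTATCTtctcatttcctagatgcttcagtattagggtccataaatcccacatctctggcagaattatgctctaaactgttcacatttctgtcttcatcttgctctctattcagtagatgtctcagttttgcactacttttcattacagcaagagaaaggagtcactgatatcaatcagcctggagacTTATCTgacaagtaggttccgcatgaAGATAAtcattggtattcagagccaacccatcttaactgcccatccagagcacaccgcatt
Cpa3 held 1 match, which begins 46 bases before the start. Ms4a2 held 3, which begin 224, 37 and 11 bases before it. Itga2b, Mcpt8, Hdc and both annotated promoters of Gata2 held none. Of all 32851 promoters of the same length, 18.6% held at least 1 match and 0.502% held 3 or more, so that the match of Cpa3 is a common feature and the 3 of Ms4a2 are not. A match is a description of letters in this window only.

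Across all 60671 cells the 6 genes were counted to very different depths. Cpa3 had 17270 UMIs in 12799 cells, Itga2b 2571 in 2308 cells and Mcpt8 412 in 394 cells. Gata2 had 45 UMIs, each in a cell of its own, Hdc 15 in 13 cells and Ms4a2 7 in 7 cells. The IgE receptor chain, the histamine enzyme and the transcription factor were thus near the limit of detection, and comparisons of genotypes rest on Cpa3, Itga2b and Mcpt8.

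**Figure D1:**
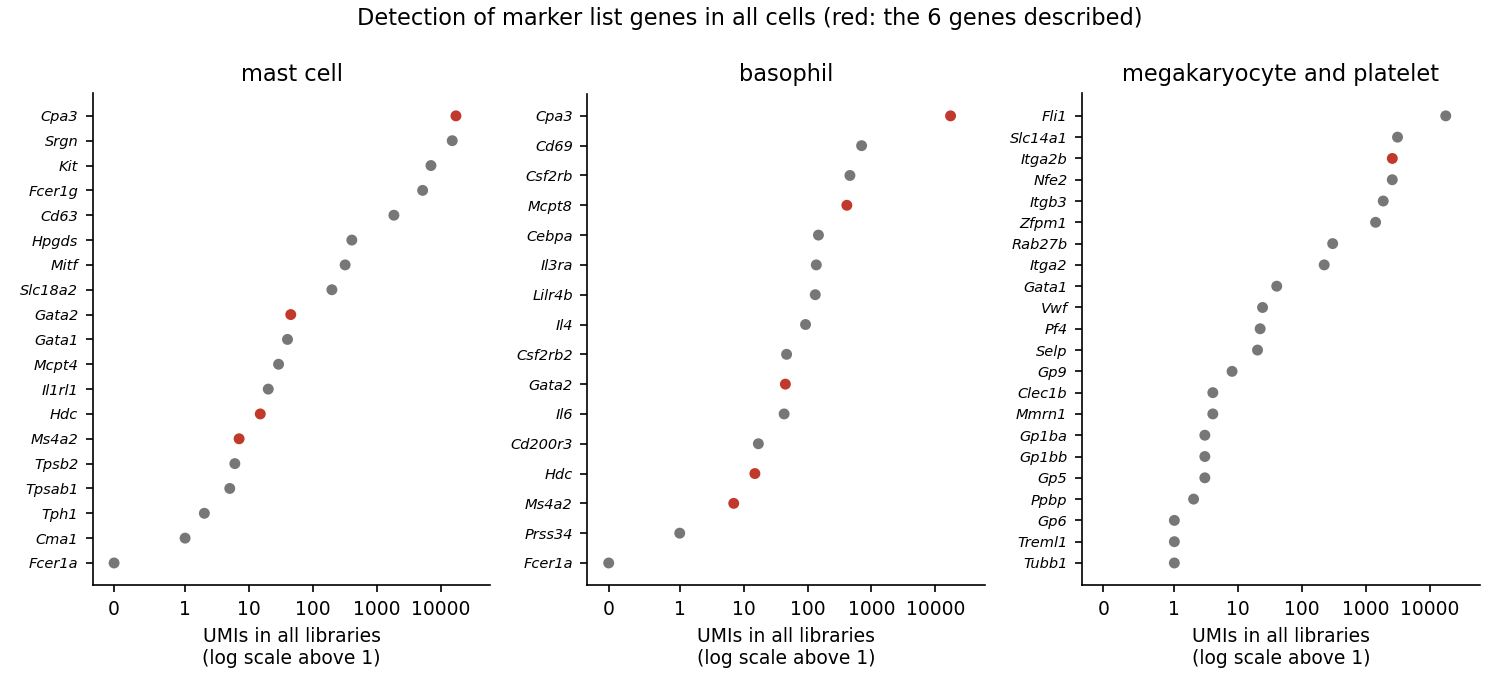
Total UMIs over all 6 libraries (horizontal axis, log scale above 1) of genes of the mast cell, basophil and megakaryocyte lists (vertical axis), with the 6 genes described in red. Cpa3 leads the mast cell and basophil lists at 17270 UMIs while Fcer1a is at 0, and Fli1 leads the megakaryocyte list while most platelet genes lie under 30 UMIs.

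The labels name no mast cells, basophils or megakaryocytes, and the defining transcripts of these cells were at or near 0. Fcer1a, the IgE-binding chain of FcεRI, had 0 UMIs in all libraries. The basophil protease Prss34 had 1 UMI, the mast cell chymase Cma1 1, the tryptases Tpsab1 and Tpsb2 5 and 6, and Tph1, which starts serotonin synthesis, 2. Of platelet genes, Pf4 had 22 UMIs, Gp9 8, Ppbp 2 and Tubb1 1. Each of these counts is small beside those of Cpa3 and Itga2b, so the 6 genes are called here by their names and not taken as marks of those cell types. Of erythroid genes, Hba-a2 and Ermap were at 0 and Klf1, the erythroid master factor, at 3 UMIs, while the carbonic anhydrase gene Car2 had 190, the β-globin gene Hbb-bt 11506 and the transferrin receptor gene Tfrc, which dividing cells also express, 12234.

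Gata2 was at 7, 16 and 4 UMIs in the WT libraries of the DN1, DN2a and DN2b starts and at 13, 5 and 0 UMIs in the ΔTE libraries. In CPM these were 1.17, 1.77 and 1.46 in WT and 2.20 and 0.791 in ΔTE cells, and the 0 of the ΔTE DN2b library allows up to 1.75 CPM (3 UMIs). On the log2 scale ΔTE over WT came to 0.92 (95% interval -0.51 to 2.48) for the DN1 start and -1.16 (-2.96 to 0.35) for DN2a. Both intervals include 0, and at this depth no difference in Gata2 was detectable. The wells of the 2 genotypes did not overlap at either start, with ΔTE higher at DN1 and lower at DN2a, yet each well held at most 6 of these UMIs.

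Ms4a2 was detected after the DN1 start only, with 4 UMIs in the WT and 3 in the ΔTE library, a log2 ratio of -0.39 (-3.16 to 2.17). The 4 libraries of the DN2a and DN2b starts held none, which allows between 0.332 CPM in the largest and 1.75 CPM in the smallest of them. Hdc had 5 UMIs in WT and 8 in ΔTE cells of the DN1 start, a log2 ratio of 0.70 (-1.09 to 2.66). After the DN2a start it had 1 UMI in each genotype, and after DN2b 0. Of all Hdc UMIs 13 of 15, and of all Ms4a2 UMIs 7 of 7, thus came from cells that began as DN1.

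Cpa3 was counted in every library and differed little between them. After the DN1, DN2a and DN2b starts WT cells held 401, 586 and 456 CPM of it, and ΔTE cells held 494, 720 and 498 CPM. The 3 wells of the DN1 start ran from 394 to 411 CPM for WT and from 484 to 501 CPM for ΔTE, and those of the DN2a start from 562 to 599 CPM and from 710 to 729 CPM. At both of these starts every ΔTE well lay above every WT well. After the DN2b start the wells overlapped, with 426 to 488 CPM for WT against 466 to 515 CPM for ΔTE.

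ΔTE cells held 1.23 times the WT level of Cpa3 after DN1 (95% interval 1.17 to 1.30), 1.23 times after DN2a (1.18 to 1.28) and 1.09 times after DN2b (1.00 to 1.19). The log2 ratio of the DN2b start, 0.13 (-0.00047 to 0.25), reaches 0. As UMIs per 1000 cells it was 0.0034 (-0.12 to 0.13), and with TMM factors 0.15 (0.020 to 0.27), so the scaling decides which side of 0 its interval lies on. In neither genotype did Cpa3 follow Bcl11b over the starts: it was highest after DN2a, while Bcl11b was highest after DN2b.

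**Figure D2:**
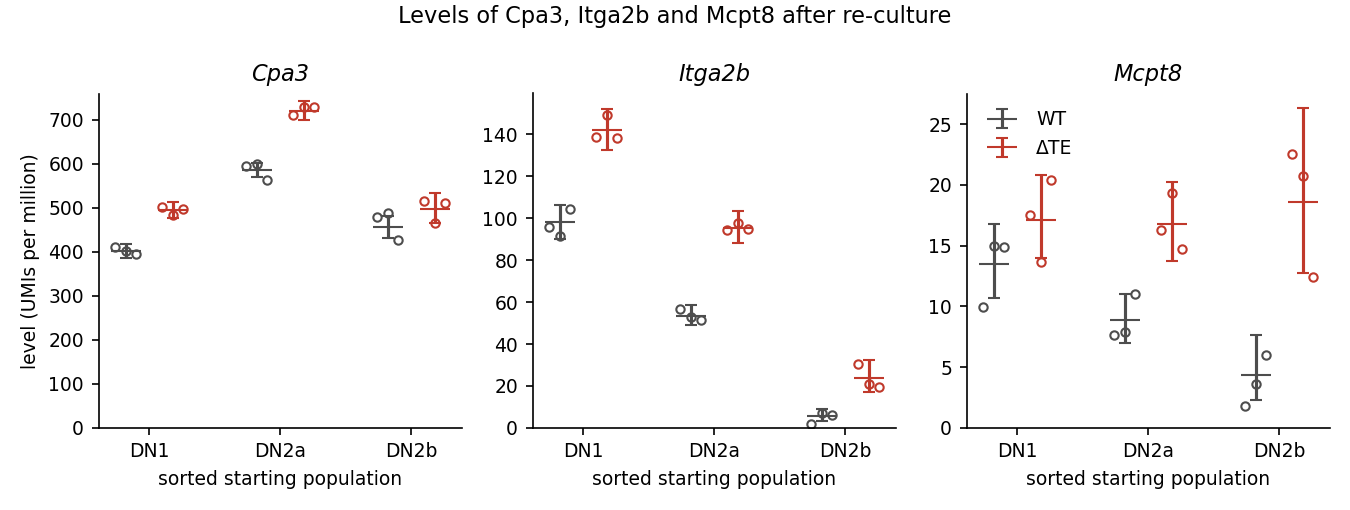
Levels in UMIs per 1000000 (vertical axes) of Cpa3, Itga2b and Mcpt8 after re-culture of each sorted population (horizontal axes), with dashes and bars for the library and its exact 95% Poisson interval and open circles for the 3 wells. Itga2b falls steeply from DN1 to DN2b in both genotypes and is higher in every ΔTE well, while Cpa3 peaks after DN2a.

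Itga2b had the clearest order over the starts. It stood at 98.1 CPM after DN1, 53.6 after DN2a and 5.49 after DN2b in WT cells, and at 142, 95.6 and 23.9 CPM in ΔTE cells. The WT level after DN1 was 17.9 times that after DN2b, a log2 ratio of -4.16 (-5.01 to -3.43) from DN1 to DN2b. The corresponding ΔTE figures were 5.95 times and -2.57 (-3.06 to -2.12). No neighbours in the order overlapped in their intervals in either genotype, and the WT decline was the steeper.

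At each start Itga2b was higher in ΔTE cells. Their level was 1.45 times that of WT after DN1 (1.30 to 1.61), 1.78 times after DN2a (1.58 to 2.01) and 4.35 times after DN2b (2.36 to 8.46). The wells did not overlap at any start: they reached 104, 56.7 and 7.29 CPM at most in WT and 139, 94.6 and 19.5 CPM at least in ΔTE cells. The DN2b values rest on 15 UMIs in WT and 41 in ΔTE cells. In bulk sums such as these, fewer cells with the transcript and less transcript per cell cannot be told apart.

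Mcpt8 was low everywhere but differed between genotypes in a like manner. WT cells held 13.5 CPM (81 UMIs), 8.84 (80) and 4.39 (12) after the DN1, DN2a and DN2b starts, and ΔTE cells 17.1 CPM (101 UMIs), 16.8 (106) and 18.6 (32). The WT level after DN2b was thus below that after DN1, with a log2 ratio of -1.62 (interval -2.63 to -0.74). In ΔTE cells the same comparison gave 0.12 (-0.50 to 0.71), with no order discernible.

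ΔTE over WT for Mcpt8, on the log2 scale, came to 0.34 (-0.09 to 0.78) at DN1, 0.92 (0.49 to 1.36) at DN2a and 2.09 (1.09 to 3.18) at DN2b. The wells overlapped at DN1 and did not at DN2a, where WT reached 11.0 CPM and ΔTE began at 14.7 CPM, nor at DN2b, where WT reached 5.96 and ΔTE began at 12.4 CPM. For Itga2b and Mcpt8 the ratio was thus greatest after DN2b, the start from the cells that already had the Bcl11b reporter on, and for Cpa3 it was least there. Whether the ratios differ between starts was not tested.

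Among the 6 genes, those with at least 20 UMIs in the 2 libraries of a start can be set beside all genes counted that deeply. For DN1 these were 4 of the 6, and 1 of them (Gata2) passed 1.5-fold higher in ΔTE, where 3.17% of 11452 genes did, and 0 passed 1.5-fold lower, where 5.05% did. For DN2a 2 of 4 (Itga2b and Mcpt8) passed 1.5-fold higher, where 2.62% of 12214 genes did, and 1 (Gata2) passed lower, where 11.5% did. For DN2b 2 of 3 (Itga2b and Mcpt8) passed higher, where 5.57% of 10073 genes did, and 0 passed lower, where 8.83% did. Since the genes were chosen on these contrasts, nothing is read from their share.

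By wells, 3 of 4 genes (Itga2b, Cpa3 and Gata2) lay higher in every ΔTE well at DN1, as did 8.25% of all genes, and 0 lay lower in every well, as did 8.25%. At DN2a 3 of 4 (Itga2b, Cpa3 and Mcpt8) lay higher, beside 2.92% of all genes, and 1 (Gata2) lay lower, beside 16.2%. At DN2b 2 of 3 (Itga2b and Mcpt8) lay higher, beside 7.72%, and 0 lower, beside 9.31%. The median log2 ratio of all genes was -0.0041 at DN1, -0.15 at DN2a and -0.023 at DN2b. Relative to the DN2a median, Itga2b stood at 0.98, Mcpt8 at 1.07, Cpa3 at 0.45 and Gata2 at -1.01. With TMM factors the share of 1.5-fold calls at DN2a that were higher in ΔTE moved from 18.5% to 33.2%, and Itga2b, Mcpt8 and Cpa3 remained above 0 at all 3 starts under each scaling tried.

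**Figure D3:**
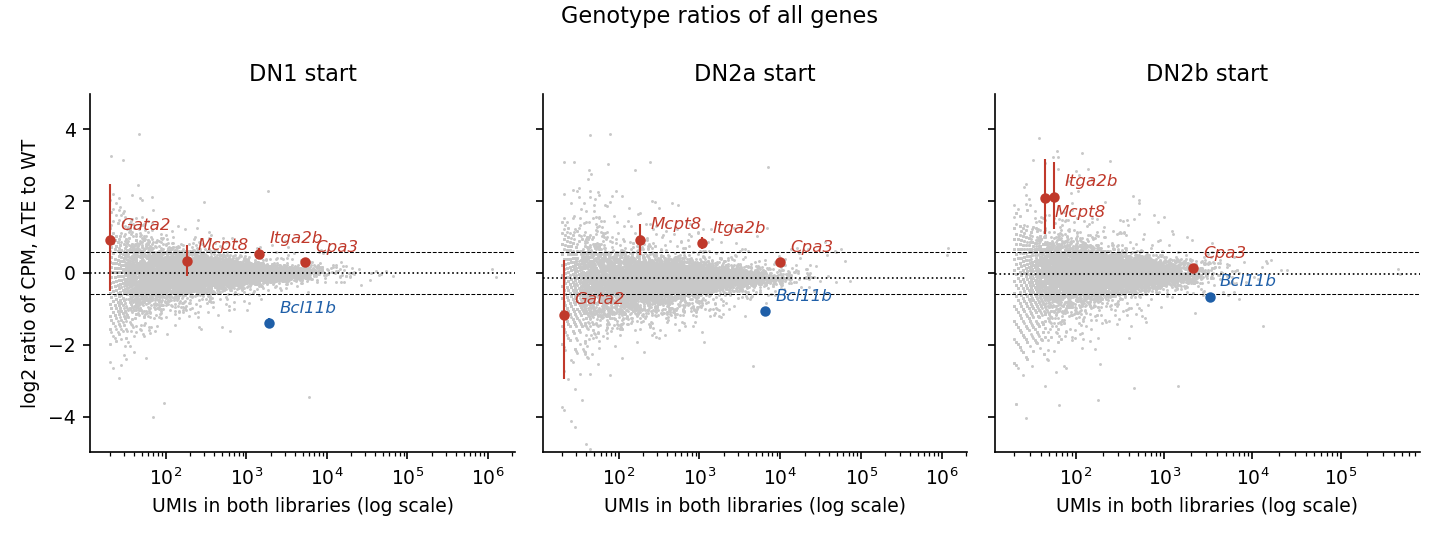
Log2 ratio of CPM from WT to ΔTE (vertical axes) against UMIs in both libraries (horizontal axes, log scale) for every gene with at least 20 UMIs, with genes at 0 UMIs in either library or beyond the axis limits not drawn. Dotted lines mark the median of all genes, dashed lines 1.5-fold, and bars exact 95% intervals: at DN2b Itga2b and Mcpt8 stand near 2.1, Cpa3 near 0.13 and Bcl11b at -0.67.

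The DN2a values moved with the mitochondrial settings, in which the WT library stood apart, and the cause was not tested. Without the mitochondrial limit the DN2a log2 ratio of Cpa3 was 0.11 (0.059 to 0.17) and that of Itga2b 0.64 (0.47 to 0.81). With mitochondrially encoded genes left out of the total, that of Cpa3 was 0.42 (0.37 to 0.48). Its direction held in each case, and its size did not.

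Markers of the stromal line moved with genotype. All 9 listed stromal genes were in the matrices, 8 had at least 20 UMIs at each start, and 7, 7 and 8 of them lay past 1.5-fold lower in ΔTE cells, with summed WT levels of 488, 1993 and 746 CPM for DN1, DN2a and DN2b against 287, 1222 and 351 CPM for ΔTE. Without every cell that held a stromal UMI the log2 ratio of Itga2b at DN2b was 1.99 (1.03 to 3.03), that of Mcpt8 1.92 (0.91 to 3.02) and that of Cpa3 at DN2a 0.23 (0.17 to 0.29). The direction of each value was the one found with all cells, and any further part of stromal RNA in it was not tested.

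Most markers of ILCs and NK cells moved the other way. Of 18 listed genes 11, 14 and 14 had at least 20 UMIs, and 2, 9 and 11 passed 1.5-fold higher in ΔTE cells at the DN1, DN2a and DN2b starts, with median log2 ratios of 0.43, 0.79 and 1.32. None passed lower, but Nkg7 of this list was lower at each start, at -0.32 (-0.42 to -0.22), -0.48 (-0.56 to -0.40) and -0.17 (-0.32 to -0.017). Rora was at -0.23 (-0.55 to 0.09) at DN1. Il2rb, a chain of the IL-2 and IL-15 receptors, had 5.86 CPM at DN2b in WT against 59.4 CPM in ΔTE, and Zbtb16, the factor PLZF of ILC precursors, had 239 CPM at DN2a in WT against 485 CPM in ΔTE. Without cells that held UMIs of 2 or more of these markers, the log2 ratio at DN2b was 1.60 (0.54 to 2.72) for Itga2b, 1.997 (0.71 to 3.42) for Mcpt8 and 0.23 (0.071 to 0.38) for Cpa3. A change in the share of such cells and a change in transcript per cell cannot be told apart in the sums.

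Counting cells in place of UMIs gave the same order. After each cell was thinned to 300 UMIs, which left out 462 to 4723 shallower cells per library, Cpa3 was found in 10.3%, 14.9% and 11.9% of WT cells and in 12.7%, 17.8% and 12.7% of ΔTE cells of the DN1, DN2a and DN2b starts. Itga2b was found in 2.96%, 1.42% and 0.136% of WT cells and in 4.22%, 2.63% and 0.510% of ΔTE cells. Mcpt8 was found in 0.435%, 0.230% and 0.0906% of WT cells and in 0.409%, 0.563% and 0.646% of ΔTE cells. The share with Mcpt8 was therefore not higher in ΔTE cells at DN1, in contrast to its CPM, and no order was read there.

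Without thinning, Cpa3 was seen in 16.9% (WT, DN1) to 27.6% (ΔTE, DN2a) of cells, Itga2b in 0.282% (WT, DN2b) to 7.23% (ΔTE, DN1) and Mcpt8 in 0.221% (WT, DN2b) to 0.933% (ΔTE, DN1). Of the cells with Cpa3, 9526 held 1 UMI, 2419 held 2 and 67 held 5 or more, with 8 the most in any cell. Cpa3 was thus a low transcript of many cells here and not a high transcript of few. The log2 ratio of the thinned share was 1.91 (0.46 to 3.56) for Itga2b and 2.83 (1.25 to 4.85) for Mcpt8 at DN2b.

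To see which cells carried the transcripts, cells were sorted by whether they held UMIs of 2 or more genes of a marker list, a threshold chosen after the data were seen, under which a cell can count under several lists. Cpa3 stood at 662 CPM (95% interval 644 to 680) in cells with ILC or NK markers, 576 (550 to 603) in those with T cell markers and 450 (418 to 484) in those with markers of multipotent progenitors. It was at 207 CPM in cells with dendritic, 132 with neutrophil and 94.0 with monocyte or macrophage markers, and at 154 CPM (138 to 171) in cells with stromal markers. These sums mix libraries in unequal shares. Within each of the 6 libraries Cpa3 was lower in cells with stromal markers, at 98.6 to 231 CPM, than in those with T cell markers, at 389 to 741 CPM, or ILC or NK markers, at 510 to 794 CPM. Cells with progenitor markers ran from 332 to 670 CPM, and the order among these last groups differed between libraries.

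Stromal cells were taken to lack these genes and so to show how much stray RNA reaches a cell, which was not tested. Barcodes that held several cells were not sought. After thinning to 300 UMIs, Cpa3 was found in 3.4% of cells with stromal markers (2.78% to 4.12%, median depth 551.5 UMIs) and in 13.9% of all cells (median depth 434 UMIs). Itga2b was found in 0.539% of them (0.308% to 0.873%) against 2.23% of all, and Mcpt8 in 0.135% (0.0367% to 0.344%) against 0.367% (0.317% to 0.424%). The share of Itga2b after the DN2b start was 0.136% (0.0499% to 0.296%) for WT and 0.510% (0.286% to 0.840%) for ΔTE. Neither lay above the stromal share, which was pooled over all libraries. Cells with stromal markers numbered 1863 WT and 725 ΔTE after DN2a, 275 and 182 after DN1, and only 170 and 55 after DN2b. The pooled share thus rests mainly on the DN2a cultures, where WT cells held 53.6 and ΔTE cells 95.6 CPM of Itga2b. After DN2b they held 5.49 and 23.9 CPM, so the pooled share cannot decide whether the DN2b values exceed stray RNA. Neither value is read as stray RNA or as expression beyond it, and the DN2b difference in Itga2b is to be taken with that limit. The WT share of Mcpt8 at that start, 0.0906% (0.0247% to 0.232%), was likewise not above the pooled share. Its ΔTE share of 0.646% (0.390% to 1.01%) lay above the pooled stromal interval. The DN2b cells with stromal markers were too few to set a share for these genes. Gata2 was at 1.81 CPM in cells with stromal markers and 1.42 CPM in all cells, and so was not above its level in stromal cells. Whether stromal cells express Gata2 themselves was not tested.

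Itga2b was at 93.7 CPM (87.1 to 101) in cells with ILC or NK markers, 83.6 (70.1 to 99.0) with progenitor markers and 56.9 (48.9 to 65.7) with T cell markers. Mcpt8 was at 16.7 (14.03 to 19.8), 16.9 (11.1 to 24.5) and 7.42 (4.75 to 11.0) in the same cells, and at 44.1 CPM (16.2 to 96.1), from 6 UMIs, in cells with neutrophil markers. These sums mix libraries as well. Within libraries the intervals of T cell marker and ILC or NK marker cells overlapped for Mcpt8 in all 6 and for Itga2b in all but ΔTE DN2a, at 71.7 (53.6 to 94.1) against 108 (94.5 to 123) CPM, so no order of these groups is read. Of 15 Hdc UMIs, 4 were in the 205 cells with neutrophil markers.

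**Figure D4:**
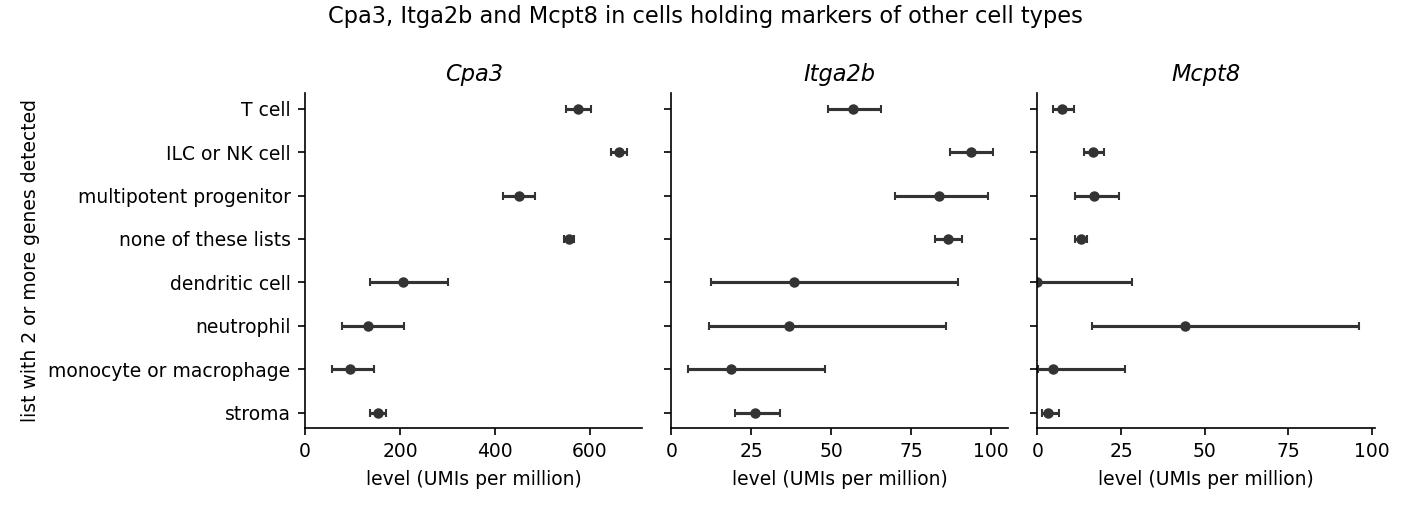
Levels in UMIs per 1000000 (horizontal axes) of Cpa3, Itga2b and Mcpt8 over all libraries in cells with UMIs of 2 or more genes of a marker list (vertical axis), with exact 95% Poisson intervals. Cpa3 lies at 450 to 662 CPM in lymphoid and progenitor groups and at 94.0 to 207 CPM in myeloid and stromal groups.

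The genotypes were also compared within these groups. In cells with ILC or NK markers the log2 ratio of Itga2b was 0.31 (0.0080 to 0.61) at DN1, 0.97 (0.64 to 1.32) at DN2a and 3.36 (1.32 to 6.50) at DN2b, the last from 2 UMIs in WT and 20 in ΔTE cells. For Cpa3 it was 0.28 (0.13 to 0.42), 0.18 (0.076 to 0.28) and -0.21 (-0.44 to 0.0096). In cells with T cell markers Itga2b gave 0.56 (-0.14 to 1.28) at DN1 and 0.63 (0.030 to 1.24) at DN2a, and Cpa3 0.34 (0.035 to 0.66) and 0.33 (0.16 to 0.50). In cells with progenitor markers every interval included 0, with Itga2b at 0.48 (-0.14 to 1.11) and 0.95 (-0.02 to 1.94) and Cpa3 at 0.22 (-0.08 to 0.52) and 0.0019 (-0.34 to 0.34) at DN1 and DN2a. In cells with stromal markers Cpa3 gave 0.81 (0.022 to 1.61) at DN1, 0.54 (0.17 to 0.91) at DN2a and 0.45 (-1.39 to 2.03) at DN2b. In the same cells Itga2b gave 0.49 (-1.36 to 2.29) at DN1 and 0.96 (-0.0013 to 1.90) at DN2a. Cells taken to lack these genes thus also held more Cpa3 in ΔTE at DN1 and DN2a. What part of the ratios in the other groups is stray RNA was not tested.

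Because the deletion lowers Bcl11b, cells were also split by whether they held a Bcl11b UMI, a split chosen after the data were seen that misses many cells with the gene at this depth. Itga2b was lower in cells with a Bcl11b UMI in all 6 libraries, from 42.7 against 106 CPM in WT DN1 to 17.4 against 25.8 CPM in ΔTE DN2b, and the interval of the ratio lay below 0 in 3 of them. Mcpt8 was lower in 5 of 6 libraries and level in ΔTE DN1, at 16.8 against 17.1 CPM, with 1 to 8 UMIs per library in the cells with Bcl11b. Cpa3 was not lower in any: it stood at 524 CPM with and 384 CPM without a Bcl11b UMI in WT DN1, a log2 ratio of 0.45 (0.29 to 0.61), and at 724 and 482 CPM in ΔTE DN1, a log2 ratio of 0.59 (0.38 to 0.79). The 3 genes thus divided into Cpa3, which was present alongside Bcl11b, and Itga2b and Mcpt8, which were scarcer there but for Mcpt8 in ΔTE DN1.

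Among cells without a Bcl11b UMI the log2 ratio of ΔTE to WT remained 0.44 (0.29 to 0.60), 0.78 (0.59 to 0.97) and 2.03 (1.02 to 3.16) for Itga2b at the 3 starts. Among cells with a Bcl11b UMI it was 1.33 (0.58 to 2.10), 0.88 (0.35 to 1.41) and 2.11 (0.14 to 4.33), the last from 4 and 7 UMIs. Cpa3 gave 0.33, 0.30 and 0.19 without and 0.47, 0.34 and 0.027 with a Bcl11b UMI. The genotype difference in Itga2b was thus seen on both sides of the split.

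**Figure D5:**
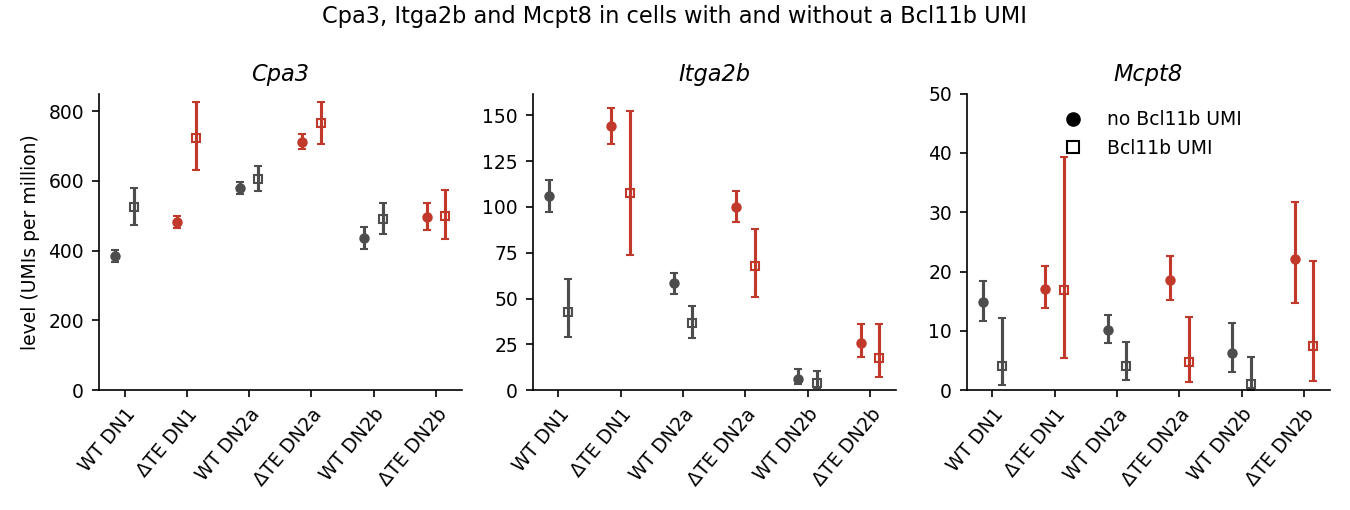
Levels in UMIs per 1000000 (vertical axes) of Cpa3, Itga2b and Mcpt8 in cells without (filled circles) and with (open squares) a Bcl11b UMI in each library (horizontal axes; WT gray, ΔTE red), with exact 95% Poisson intervals. Itga2b lies lower in cells with Bcl11b in every library, as at 42.7 against 106 CPM in WT DN1, and Cpa3 in none.

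UMIs of at least 2 of the 6 genes were found in 770 cells, or 1.27% (1.18% to 1.36%) of all. The share was 1.30%, 0.795% and 0.221% in WT and 2.21%, 1.86% and 0.559% in ΔTE cells of the DN1, DN2a and DN2b starts. Of these, 634 held Cpa3 with Itga2b, where the product of the separate shares within each library gives 494, and 115 held Cpa3 with Mcpt8, where it gives 85.0. The cells had a median depth of 691 UMIs and the others 432, and deeper cells show any pair of genes more often. In 18 cells there were 3 or more of the genes, and in 1 cell 4.

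By the rule set for likeness, the 10 genes most raised in the cells with 2 or more of the 6 genes were Ttc41, Trim66, Gm45902, Rab27b, B3galt5, Irak3, Slc22a14, Ndor1, Gm50364 and Srd5a1, among 7689 genes ranked. Each had 10 to 22 UMIs there, and their log2 ratios ran from 1.14 to 1.49. Rab27b, which acts in the release of platelet and mast cell granules, had 14 UMIs in those cells and a log2 ratio of 1.32 (0.43 to 2.09). Counts this low do not set these 10 apart from the genes ranked after them.

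Taking each gene alone gave clearer company, chosen after the data were seen and set against other cells of the same library. The intervals of these ratios cover the counts in the cells with the gene only and hold the rate of other cells as fixed. Of 9725 genes with at least 100 UMIs counted plus expected, Mir7007 was highest in the 12799 cells with Cpa3, at a log2 ratio of 0.96 (0.86 to 1.06), but this microRNA gene lies inside Cpa3 on the same strand (chromosome 3, 20222290 to 20222359), so reads of both cannot be told apart. Gem, a small GTPase, followed at 0.94 (0.61 to 1.24), Cyp11a1, which begins steroid synthesis, at 0.93 (0.63 to 1.22), and Themis, a T cell signaling protein, at 0.61 (0.49 to 0.72). Zbtb16 was higher in cells with Cpa3 in all 6 libraries, at 0.56 (0.51 to 0.60), and Csf1r, the macrophage growth factor receptor, was lower at -2.43 (-3.16 to -1.79). Genes of the mast cell list went both ways. Mcpt4, below the depth of that ranking, had 28 UMIs in these cells where the rate of other cells gives 0.26, a log2 ratio of 6.75 (6.16 to 7.28), in 2 libraries. That interval is too narrow, since 26 of all 29 Mcpt4 UMIs lay in 3 ΔTE DN1 cells, with 17 in 1 of them. The ratio thus describes those few cells and not the cells with Cpa3 at large. Fcer1g was at 0.25 (0.18 to 0.32), Kit, the stem cell factor receptor, at 0.15 (0.084 to 0.22) and Srgn, the core protein of granule proteoglycans, at 0.12 (0.076 to 0.17). Mitf, the master factor of mast cells, was lower at -0.75 (-1.17 to -0.36), as was Cd63 at -0.82 (-0.99 to -0.66).

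In the 2308 cells with Itga2b Perp was highest of 5810 genes ranked, at 0.89 (0.54 to 1.23). Among the 10 highest, the thromboxane synthase Tbxas1 was at 0.74 (0.52 to 0.96) and the ATP receptor P2rx1 at 0.72 (0.40 to 1.02). Both are known from platelets. Hbb-bt, a β-globin gene, stood at 0.64 (0.55 to 0.73) and was higher in all 6 libraries. Of other globin genes, Hbb-bs had only 34 UMIs and Hba-a1 3 in all, against 11506 of Hbb-bt, so no erythroid program is read from it. Nfe2, a megakaryocyte factor, was at 0.33 (0.094 to 0.56), while Itgb3, the partner chain of CD41, was at 0.040 (-0.28 to 0.35). Of the same list, Zfpm1 was at 0.16 (-0.19 to 0.48), Rab27b at 0.024 (-0.98 to 0.86), Slc14a1 at -0.0035 (-0.25 to 0.23) and Fli1 at -0.076 (-0.18 to 0.024). These intervals include 0, so no platelet program is read from the cells with Itga2b. Cd3g, of the T cell receptor complex, was lower at -1.13 (-1.44 to -0.83), and Bcl11b at -0.82 (-1.01 to -0.63), each in all 6 libraries.

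In the 394 cells with Mcpt8, Gzmb, the granzyme B gene of cytotoxic cells, was highest of 898 genes ranked, at 1.06 (0.80 to 1.31). It lies in the same protease cluster on chromosome 14, from 56258838 to 56262260. Fcer1g, the γ chain that FcεRI shares with other receptors, stood at 0.54 (0.19 to 0.88) and Mpo, the myeloperoxidase gene, at 0.93 (0.40 to 1.41). Bcl11b was lower at -1.29 (-1.85 to -0.79) and Cd3g at -2.03 (-3.09 to -1.15). Cells with any of the 3 genes were deeper, at medians of 523, 577.5 and 557 UMIs for Cpa3, Itga2b and Mcpt8, against 416, 430 and 434 UMIs in the cells without.

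The neighbours of Mcpt8 in the protease cluster did not all move with it. Gzmb had log2 ratios of 0.16, 0.38 and 1.16 (0.99 to 1.32) at DN1, DN2a and DN2b, and Ctsg, the cathepsin G gene of neutrophils, had -0.18, 0.29 and 0.085. The mast cell protease genes Mcpt1 and Mcpt2 had 55 and 10 UMIs in all, every one of them in cells of the DN1 start, where Mcpt1 gave 33 in WT and 22 in ΔTE cells. Among genes within 200 kb of Itga2b, the log2 ratios at DN2b of those with at least 20 UMIs in the 2 DN2b libraries ran from -0.40 for Fzd2 to 0.33 for BC030867, with that of Itga2b at 2.12.

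The companion genes of the mast cell program, with the 6 genes left out, showed no common shift. In what follows a gene passes when it lies beyond 1.5-fold with at least 20 UMIs in the 2 libraries, which is a description and no test. Of 15 others 8, 8 and 7 had at least 20 UMIs, and 2, 1 and 3 passed 1.5-fold higher and 0, 0 and 1 lower in ΔTE cells at DN1, DN2a and DN2b, with medians of 0.22, -0.13 and 0.10 beside -0.0041, -0.15 and -0.023 for all genes. Fcer1g was higher at every start, with WT levels of 128, 113 and 42.5 CPM and ΔTE levels of 220, 266 and 189 CPM, and NK cells and ILCs also use this chain. Mitf had 24 UMIs in WT and 4 in ΔTE cells at DN2b, a log2 ratio of -1.91 (-3.90 to -0.37), and the granule protein gene Cd63 gave 0.78 (0.27 to 1.29) there. Mcpt4, a mast cell chymase, had 3 UMIs in WT and 26 in ΔTE cells of the DN1 start and 0 elsewhere.

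Of 11 other basophil genes 6, 7 and 2 had at least 20 UMIs, 1 passed higher and 1 lower at DN1 and none passed at the later starts, with medians of -0.25, -0.064 and -0.043. Those 2 were Cebpa, a granulocyte factor, at 1.15 (0.06 to 2.33), and Csf2rb2, an IL-3 receptor chain, at -0.88 (-1.89 to 0.08). Of 22 other megakaryocyte and platelet genes 7, 8 and 7 had at least 20 UMIs, and only Rab27b passed, at DN1 with 0.90 (0.06 to 1.79) and at DN2b with 0.81 (0.28 to 1.35). The medians were 0.19, -0.13 and 0.13. Itgb3, Nfe2, Fli1 and Slc14a1, with 1853 to 17633 UMIs each, were well counted and did not pass 1.5-fold at any start.

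Of the genes of FcεRI signaling without Ms4a2, 11 of 12 were counted at each start and Fcer1g alone passed. Of the 12 other genes of histamine, heparin and granule machinery 9 were counted at each start, of which 0 passed higher and 1 lower (Lyz2) at DN1, none at DN2a, and 3 higher (Gzmb, Slc18a2 and Cd63) and 1 lower (Lyz2) at DN2b. Among 18 stem and progenitor factors that work with Gata2, Gata3 and Cebpa were higher at DN1 (0.69 and 1.15), Meis1 and Lmo2 lower at DN2a (-0.84 and -0.68) and Meis1 and Spi1 lower at DN2b (-1.17 and -0.72). None of the 3, 4 and 2 of 12 erythroid genes counted passed (medians 0.11, 0.055 and -0.035), and of 6 eosinophil genes Siglecf was lower at DN2a (-1.05) and DN2b (-0.74) and Il5ra at DN2a (-0.60). The intervals of Slc18a2 (-0.24 to 1.96), Lyz2 (-2.01 to 0.16), Spi1 (-1.65 to 0.14) and Siglecf (-2.03 to 0.41) at DN2b include 0. So do those of Lmo2 (-1.59 to 0.18) and Il5ra (-1.72 to 0.44) at DN2a. The lists to which Itga2b and Mcpt8 belong thus did not show their ratios.

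Other lists showed what surrounded these genes. Of all genes with at least 20 UMIs, 3.17%, 2.62% and 5.57% passed higher and 5.05%, 11.5% and 8.83% lower at DN1, DN2a and DN2b. Of the 10 T cell genes 9, 10 and 10 had at least 20 UMIs, and 2, 0 and 1 passed higher and 3, 4 and 1 lower. Cd3g, which encodes a chain of the T cell receptor complex, was at -1.61 (-1.88 to -1.34) at DN1 and -1.20 (-1.32 to -1.09) at DN2a. Of the 8 progenitor genes 8, 7 and 5 had at least 20 UMIs, and 0, 1 and 0 passed higher and 0, 3 and 3 lower. Cd34, a surface marker of stem and progenitor cells, was at -1.47 (-1.76 to -1.19) at DN2a and -2.54 (-3.33 to -1.84) at DN2b. Of the 10 neutrophil genes only 8, 2 and 1 had at least 20 UMIs. None of them passed higher, and 5, 0 and 1 passed lower, Elane and Mpo among the 5. Of the 10 monocyte or macrophage genes 8, 9 and 2 had at least 20 UMIs, and 1, 4 and 0 passed higher and 2, 0 and 2 lower. Of the 8 dendritic cell genes 7, 6 and 1 were counted that deeply, and 2, 2 and 1 passed higher and 0 lower. Of the 6 B cell genes 2 were counted that deeply at each start, and 0 passed higher and 0, 2 and 1 lower.

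A very few cells did hold several rare genes of these lineages at once. Genes of the mast cell and basophil lists that had a UMI in under 0.1% of cells numbered 15, a limit chosen after the data were seen, and 2 or more of them occurred together in 4 of 10294 ΔTE and 1 of 10925 WT cells of the DN1 start, in 1 of 11594 ΔTE cells of the DN2a start and in none of the others. A ΔTE DN1 cell of 715 UMIs held 6 UMIs of Cpa3, 5 of Mcpt4, 3 each of Kit and Mitf, and 1 each of Gata2, Hdc, Ms4a2 and Tpsb2. Another, of 616 UMIs, held 17 of Mcpt4 and 8 of Cpa3, and another, of 373 UMIs, 4 of Mcpt4, 3 of Cpa3 and 2 of Tpsb2. All 26 Mcpt4 UMIs of that library lay in these 3 cells.

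The remaining ΔTE DN1 cell had 638 UMIs and held 4 UMIs of Mcpt8, 4 of Cpa3, 2 of Il1rl1, the IL-33 receptor, and 1 each of Ms4a2 and Cd200r3, a receptor of basophils. It held the most Mcpt8 of any cell. A ΔTE DN1 cell of 738 UMIs held 7 UMIs of Pf4 and 1 each of Gp9, Gp5, Gp1bb and Treml1, and no Itga2b. It was the only cell with 2 or more rare megakaryocyte genes, and the WT DN1 cells held none, which allows up to 0.0275% of them.

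Such cells were not particular to ΔTE. Mcpt1, a mast cell gene outside the lists that was looked at after the data were seen, had 2 or more UMIs in 4 WT and 3 ΔTE cells of the DN1 start and in no cell of the later starts, and all 7 cells also held Cpa3. A WT cell of 272 UMIs held 19 UMIs of Mcpt1, 2 of Mcpt2 and 2 of Cpa3, and a WT barcode of 1066 UMIs that the filters left out held 4 of Mcpt4, 3 of Cpa3 and 2 of Mitf. The 4 ΔTE cells with mast cell and basophil genes held 21 of the 2914 Cpa3 UMIs and 4 of the 101 Mcpt8 UMIs of their library. They held no Itga2b. Nearly all Cpa3, Itga2b and Mcpt8 of that library was therefore counted outside these 4 cells. At this depth the rule of 2 or more rare genes misses cells, as it missed the 4 WT cells with Mcpt1. The lineage of the other cells with Cpa3, Itga2b or Mcpt8 is thus not settled by it.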

How the data were processed

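RNA of 6 libraries was measured by sci-RNA-seq3, 1 library for each genotype (WT or ΔTE) and start (DN1, DN2a or DN2b). The labels call it nuclear RNA while the study's methods describe fixed cells, and median mitochondrial shares were 13.3% to 23.9%; which it was is not resolved here. The authors deposited raw UMI counts per gene and cell barcode, unnormalized, as 1 matrix per library; the submitters' notes name the build mm9, and the aligner was not given in the sources used here. Cells were filtered with the limits on cells of the study's methods; its limit on genes seen in few cells was not applied. Fewer cells were left than the study gives, and the reason was not tested. UMIs were summed per library and reverse-transcription well and scaled to CPM. No doublet caller was run; the upper limit of 2000 UMIs stood in for it, and a limit of 1000 UMIs was tried.

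No test was made, since each genotype had 1 library per start and the genes were chosen on these contrasts. Ratios carry exact conditional binomial intervals, levels exact Poisson intervals and shares exact Clopper-Pearson intervals, all at 95% and for counting error only. Ratios of genes in cells with Cpa3, Itga2b or Mcpt8 instead carry exact Poisson intervals of the UMIs counted there. These hold the rate of other cells as fixed. A count of 0 allows 3 UMIs, or 0.332 to 1.75 CPM. For shares, cells were thinned to 300 UMIs at random. A gene passed when it lay beyond 1.5-fold with at least 20 UMIs in the 2 libraries. The named genes were the 6 genes, companion-list genes that passed (up to 8 per list and start), defining markers near 0, and the 10 genes most raised in cells with UMIs of 2 or more of the 6, among genes with at least 50 UMIs in all and 10 in those cells. Other genes are named as chosen after their values were seen. Some list genes are not reported here by name. The 6 genes and all lists were chosen with earlier results of these data known.

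Alternatives were other limits on UMIs and mitochondrial share, TMM factors of edgeR, other totals, left-out wells and cells, and other depths of thinning. The calculations were tested on simulated data. Python 3.11.15, numpy 2.4.6, scipy 1.17.1, pandas 2.3.3, matplotlib 3.10.9, R 4.3.3, edgeR 4.0.16 and BLASTN 2.17.0 were used.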

Additional observations from a re-analysis of the deposited data

Results flagged for a closer look

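Gata2 pointed opposite ways at different starts, with every ΔTE well above every WT well at DN1 and every ΔTE well below every WT well at DN2a. The log2 ratios were 0.92 (95% interval -0.51 to 2.48) and -1.16 (-2.96 to 0.35), from 20 and 21 UMIs, and the difference between the starts was not tested.

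Barcodes with at least 200 genes that the UMI or mitochondrial limit left out, 652 to 6440 per library, gave ratios of their own. Some of them also enter the values given above without a mitochondrial limit, and 1 WT barcode with mast cell genes above is among them. For Cpa3 the log2 ratio came to 0.38 (0.26 to 0.50), 0.30 (0.091 to 0.52) and 0.43 (0.28 to 0.58) at DN1, DN2a and DN2b, at 215.8 against 282 CPM at DN1. Itga2b had 0.67 (0.45 to 0.90), 1.13 (0.40 to 1.97) and 2.02 (1.16 to 2.97), the last from 14 UMIs in WT and 60 in ΔTE barcodes. Mcpt8 had 0.41 (-0.42 to 1.24), -0.45 (-1.61 to 0.88) and 2.79 (1.06 to 5.18), the last from 3 and 22 UMIs. These barcodes come from the same cultures as the cells kept, so they are no replicate of them.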

How the results depend on the processing

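No paired analysis was possible because the values come from no test and the labels give no replicate numbers. Of 360 alternative values 305 stayed within their counting error or, for numbers of genes, within 1.5 times, 54 moved further and 1 whose interval had excluded 0 changed sign. Among ratios of UMIs, with ratios of shares left out, Itga2b was above 0 in 58 of 58 alternatives that gave a value, and Cpa3 in 59 of 59. Mcpt8 was above 0 in 56 of 57 and Hdc in 17 of 18. Gata2 was above 0 in 17 of 38, which pools DN1, where its main value lay above 0, with DN2a, where it lay below. Ms4a2 was above 0 in 3 of 19, and its main value lay below 0. At the DN2a start Cpa3 was 0.11 without a mitochondrial limit, 0.091 over all barcodes, 0.44 with TMM factors, 0.42 without mitochondrially encoded genes, 0.53 per 1000 cells, 0.23 without stromal-marker cells and 0.45 relative to the median gene, and its ratio of shares without thinning was 0.43. Itga2b at DN2a was 0.64 without a mitochondrial limit, 0.45 at 5% or less and 1.07 per 1000 cells. At 5% or less Cpa3 at DN1 was 0.90, and 10 other ratios had no value because a library held 0 UMIs, among them Itga2b at DN1 with 0 and 15 UMIs and Mcpt8 at DN2a with 12 and 0. Of settings chosen after the data were seen, the left-out barcodes changed the sign of Mcpt8 at DN2a, to -0.45 (-1.61 to 0.88), and of Gata2 at DN1, to -1.54. Other sign changes were of values whose interval had included 0: Gata2 at DN1 was -0.28 over all barcodes, Ms4a2 at DN1 0.065 at 1000 UMIs or less, the ratio of shares of Mcpt8 at DN1 0.35 without thinning, and Ms4a2 and Hdc at DN1 changed sign with a well left out. In the left-out barcodes Cpa3 was 0.38 at DN1 and 0.43 at DN2b, and Itga2b 1.13 at DN2a, while Hdc at DN1 had no value. The cause of these moves was not tested.

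With any 1 well left out, the log2 ratios at DN1, DN2a and DN2b ran from 0.49 to 0.60, 0.81 to 0.87 and 1.87 to 2.34 for Itga2b, from 0.28 to 0.31, 0.27 to 0.32 and 0.04 to 0.17 for Cpa3 and from 0.20 to 0.48, 0.83 to 1.11 and 1.87 to 2.70 for Mcpt8. Gata2 ran from 0.59 to 1.21 at DN1 and -1.58 to -0.75 at DN2a, and at DN1 Ms4a2 ran from -1.29 to 0.84 and Hdc from -0.15 to 1.25. The number of all genes past 1.5-fold depends on the UMI minimum. At DN1 it was 363 higher with at least 20 UMIs, 646 with at least 10 and 179 with at least 50, and 578 lower against 273 with at least 50. At DN2a it was 320 higher, 525 with at least 10, 185 with at least 50 and 486 with TMM factors. At DN2b it was 561 higher and 889 lower, against 333 and 465 with at least 50. Depth limits Gata2, Ms4a2 and Hdc throughout, and Itga2b and Mcpt8 at DN2b in WT cells.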
